A study of Mus musculus with 3 samples.

Results

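Dgcr8 encodes the RNA-binding partner of the nuclease Drosha. Small RNAs that matched its transcripts were collected from 3 libraries of mouse oocytes: a read was taken when its first 20 nt, after removal of the 3' linker, were found without a mismatch on either strand of a Dgcr8 transcript of the GENCODE M21 annotation (GRCm38). Dgcr8 was 1 of 11796 coding genes with at least 1 matching read. It collected 321 reads, of which 104 lay in the sense of the mRNA and 217 on the opposite strand. Of all of them 77 had a single matching place among annotated transcripts, and the other 244 (76.0%) matched between 11 and 832 places, with a median of 203.5. The gene was selected on these same matching reads, so the counts that follow are a description and carry no test.

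DGCR8 and Drosha form the Microprocessor, the nuclear complex that recognises the stem of a primary microRNA transcript and releases a hairpin precursor, which Dicer then cuts into the mature microRNA. The mRNA of Dgcr8 itself folds into hairpins near its start, and the Microprocessor is known to cut them, a feedback on its own subunit described in several mammalian cell types. In mouse oocytes, microRNAs accumulate beside endogenous siRNAs and piRNAs, classes that do not need the Microprocessor.

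All oocytes were fully grown ones from females given 5 IU of PMSG, a hormone given to stimulate the ovary, and taken 48 hours later. Their RNA was cut from a polyacrylamide gel at 19-24 nt, at 24-30 nt or at 19-30 nt. There was 1 library for each window, no strain, age or number of animals is given in the sources used here, and no difference between windows could be set against a spread between replicates. The 19-24 nt and 24-30 nt libraries were read to 26 nt and the 19-30 nt library to 36 nt. In comparisons with the 19-30 nt library, window and read length therefore cannot be told apart. Intervals in the text are exact 95% intervals for counting error only. Fewer oocytes and less RNA per oocyte cannot be told apart in such libraries.

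The libraries held 305539 matched reads in the 19-24 nt window, 342131 in the 24-30 nt window and 143173 in the 19-30 nt window. Reads of annotated microRNA genes made up 80.3%, 7.33% and 18.8% of them, in the same order. Levels are reads per 1000000 matched reads (RPM). A floor of 3 reads was 9.82 RPM in the 19-24 nt window, 8.77 RPM in the 24-30 nt window and 20.95 RPM in the 19-30 nt window. The exact upper limit of a count of 0 was 12.1 RPM, 10.8 RPM and 25.8 RPM, in the same order. Of 8 hairpins of the germline and early embryo (Mir290a, Mir291a, Mir292, Mir293, Mir294, Mir295, Mir470 and Mir741), 8 had reads in the 19-24 nt window, 6 in the 24-30 nt window (Mir293 and Mir295 had 0) and 8 in the 19-30 nt window. Their summed level was 2258 RPM, 52.6 RPM and 10603 RPM in these libraries. All 4 hairpins of blood, vessel and connective tissue (Mir451a of red cells, Mir126a of endothelium, and Mir143 and Mir145a of smooth muscle and stroma) were also read in each library, with summed levels of 35017 RPM in the 19-24 nt, 625 RPM in the 24-30 nt and 1348 RPM in the 19-30 nt window. The 19-24 nt window therefore held more of these markers of other cells than of the germline hairpins, and the 19-30 nt window held more germline hairpin reads.

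Dgcr8 lies on the minus strand of chromosome 16 (chr16:18253948-18289246, GRCm38). Its full-length mRNA has 4320 nt in 14 exons, with a 5' UTR of 424 nt, 2319 nt of coding sequence with the stop codon, and a 3' UTR of 1577 nt. The annotation places 2 hairpins in exon 2. Gm24572, the hairpin of miR-3618, lies in the 5' UTR (chr16:18284550-18284637), and Mir1306 lies in the coding sequence (chr16:18284239-18284317). Together they cover 167 nt, which leaves 4153 nt of the mRNA outside them. Below are the mature sequences of both hairpins from RefSeq (GRCm38.p6) and the commonest complete Mir1306 read, shown because the single-place reads of Dgcr8 came almost entirely from them. Capitals mark bases 2 to 8, the seed with which a microRNA pairs to its targets.
mmu-miR-3618-5p: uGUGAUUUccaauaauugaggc
mmu-miR-3618-3p: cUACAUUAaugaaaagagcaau
mmu-miR-1306-5p: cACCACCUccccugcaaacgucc
mmu-miR-1306-3p: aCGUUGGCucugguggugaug
read from position 533: cCACCTCCcctgcaaacgtcc

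Nearly all single-place reads of Dgcr8 were sense reads of its hairpins. In the 19-24 nt window Dgcr8 had 79 sense reads, 72 of them with a single place, and all 72 started inside a hairpin. In the 24-30 nt window it had 8 sense reads, of which 3 had a single place and 2 of these were hairpin reads. In the 19-30 nt window it had 17 sense reads, of which 2 had a single place and 1 was a hairpin read. Over the 3 libraries, hairpins held 75 of the 77 single-place reads, or 97.4% (90.9 to 99.7). They held 75 of all 104 sense reads, or 72.1% (62.5 to 80.5), the other reads being 27 several-place reads in an intron-retaining transcript and 2 reads in the 3' UTR.

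**Figure D1:**
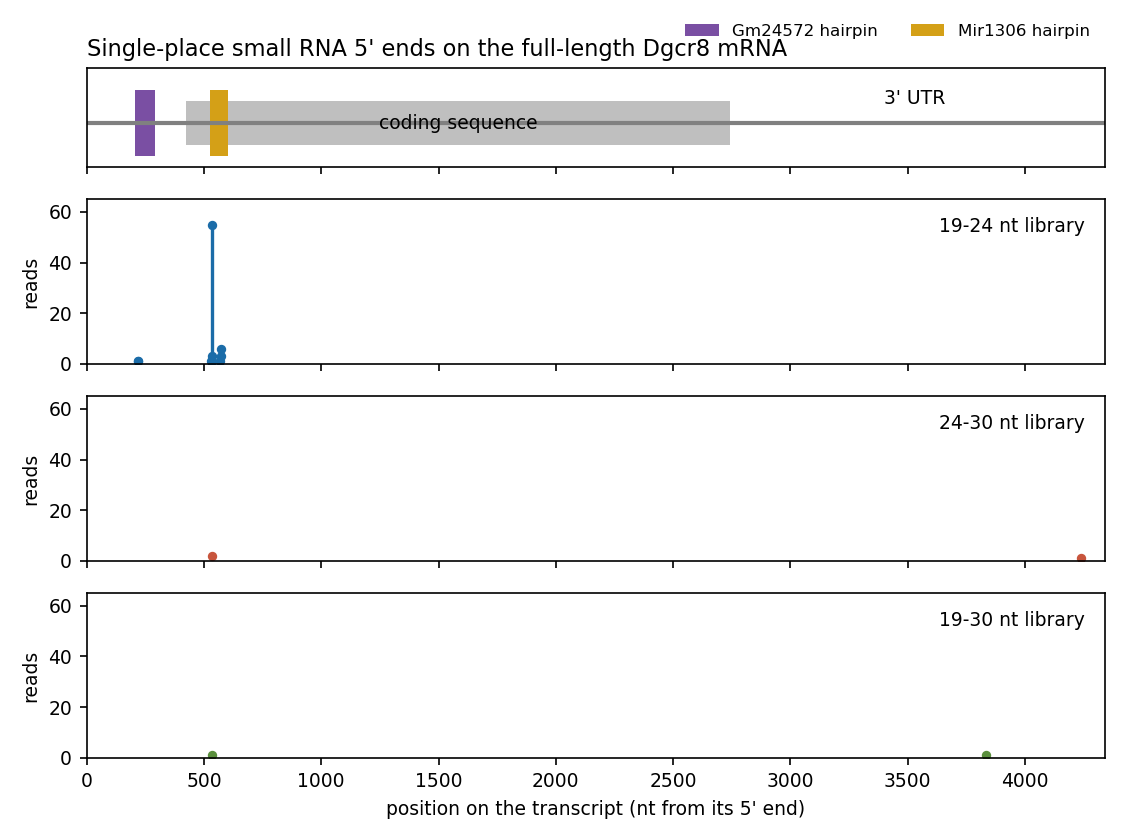
Number of single-place reads (vertical axis) that start at each position of the full-length Dgcr8 mRNA (horizontal axis, nt from its 5' end) in the 19-24 nt, 24-30 nt and 19-30 nt libraries; the top strip shows the coding sequence in grey and the hairpins in colour. The tallest line is the 55 reads of the 19-24 nt window at position 533, in the Mir1306 hairpin, while the rest of the mRNA holds 1 read in each of the other libraries, both in the 3' UTR.

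Mir1306 was the main source. It gave 70 reads in the 19-24 nt window (229 RPM, 179 to 289), 2 reads in the 24-30 nt window (5.85 RPM, 0.708 to 21.1) and 1 read in the 19-30 nt window (6.98 RPM, 0.177 to 38.9). In the 19-24 nt window it stood at rank 133 of the 365 hairpins with single-place reads, in the 24-30 nt window at rank 147 of 237, and in the 19-30 nt window at rank 199 of 247. Gm24572, the 5' UTR hairpin, gave 2 reads in the 19-24 nt window (6.55 RPM, 0.793 to 23.6) and 0 in each of the others. Within the same mRNA and library, the coding hairpin thus had 35 times as many reads as the 5' UTR hairpin (9.33 to 295). Both hairpins lie in the same exon of the mRNA.

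Mir1306 was also among the few exonic hairpins with reads. Of 100 annotated hairpins that lie inside exons of coding transcripts on the same strand, 13 had a single-place read in the 19-24 nt window and 4 had 10 or more. These were Mir21a in Vmp1 with 5377 reads, Mir324 in Dvl2 with 507, Mir671 in Chpf2 with 132, and Mir1306 with 70; the first 3 were named after their values had been seen. Gm24572 was among the 13, with 2 reads.

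The arms of Mir1306 were unequal. The 5' arm, miR-1306-5p, had 60 reads in the 19-24 nt window (196 RPM, 150 to 253), and the 3' arm, miR-1306-3p, had 10 (32.7 RPM, 15.7 to 60.2), a ratio of 6 (3.05 to 13.1). All 3 hairpin reads of the other libraries came from the 5' arm. Of miR-3618, both reads came from the 5' arm and the 3' arm had 0 reads in all 3 libraries.

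The 5' arm reads of Mir1306 did not start where the RefSeq entry does. In the 19-24 nt window 55 of 60 reads, or 91.7% (81.6 to 97.2), started 2 nt downstream of the annotated start, at position 533 of the mRNA (chr16, base 18284308). Of the other reads, 1 started 1 nt downstream, 1 started 3 nt downstream and 3 started 4 nt downstream, and the annotated start itself had 0 reads. The 2 reads of the 24-30 nt window and the 1 read of the 19-30 nt window also started 2 nt downstream. The reads at this start thus came from all 3 windows, although the 24-30 nt and 19-30 nt counts are at or under the floor. The 3' arm kept its annotated start more often: 6 of 10 reads started there (60%, 26.2 to 87.8), 3 started 1 nt upstream and 1 started 3 nt upstream. Of the 2 reads of miR-3618-5p, 1 started at the annotated base and 1 started 2 nt downstream.

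**Figure D2:**
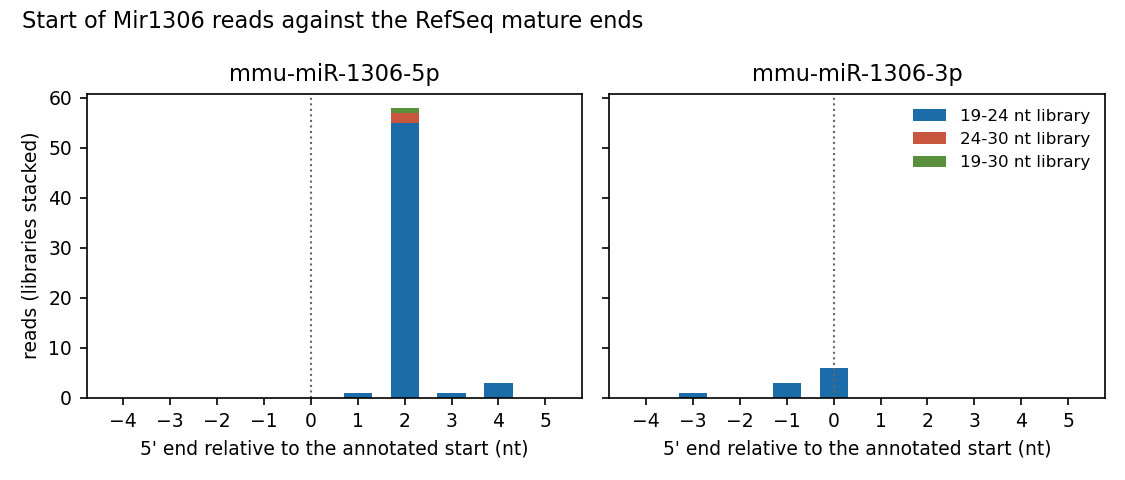
Reads of the 5' arm (left) and the 3' arm (right) of Mir1306 by the distance of their 5' end from the RefSeq start (horizontal axis, nt, negative is upstream), with the 3 libraries stacked by colour and the dotted line at the annotated start. The 5' arm stands at +2 nt, with 55, 2 and 1 reads in the 19-24 nt, 24-30 nt and 19-30 nt libraries, and the 3' arm has 6 of its 10 reads at 0.

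A start this far from the annotation was uncommon among microRNAs with 50 or more single-place reads. MicroRNAs whose reads match several places were hardly covered, such as let-7a-5p with 1 single-place read and let-7c-5p with 8. In the 19-24 nt window 139 mature microRNAs had 50 or more single-place reads, and 131 of them (94.2%) had their commonest start at the annotated base. Of the rest, 6 were off by 1 nt and 2 (1.44%) were off by 2 nt or more. These 2 were miR-1306-5p and miR-339-3p, both 2 nt downstream. The latter, named after its value had been seen, had 72.2% of 54 reads there. Below the minimum of 50 reads, miR-324-3p, of the exonic hairpin Mir324, had 91.7% of 48 reads 2 nt downstream. Also below it, miR-142a-5p had 59.0% of 39 reads 2 nt upstream. Both were named after their values had been seen. The share of reads at the commonest start was 91.7% for miR-1306-5p, against a median of 98.9% over the 139 microRNAs.

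The shift changes which bases form the seed, as the printed sequences show. Neither the seed of the annotated miR-1306-5p nor that of the commonest read was shared with another mature mouse microRNA of the RefSeq table. The seeds of miR-1306-3p, miR-3618-5p and miR-3618-3p were not shared either. Whether the shifted form pairs with other targets was not measured here.

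The commonest start of the 5' arm carried reads of several lengths. Of the 55 reads in the 19-24 nt window 1 was sized at 20 nt, 16 at 21 nt and 14 at 22 nt, and 24 had no linker that could be found, so that their length was not read. The sequence printed above is that of 11 reads of 21 nt over the 3 windows. It ends at the same base as the annotated miR-1306-5p (chr16, base 18284288), so that this sequence lacks the first 2 nt of the annotation and no base of its 3' end. Of the 14 reads of 22 nt, 9 had the transcript's base at position 22. Of the 30 reads of 21 or 22 nt, 19 had the transcript's base at position 21. None of the 24 unsized reads matched the transcript at more than 3 of bases 22 to 26. Miscalled bases and bases added to the RNA cannot be told apart at these positions. The 2 reads of the 24-30 nt window were sized at 21 nt and 22 nt, below the window of that library, and the read of the 19-30 nt window at 21 nt.

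Both hairpins folded into single stems. RNAfold gave the 79 nt of Mir1306 a minimum free energy of -29.8 kcal/mol, with 23 base pairs and a loop of 6 nt. The 88 nt of Gm24572 gave -29.9 kcal/mol, with 31 base pairs and a loop of 10 nt. The predicted energies were nearly equal, and the reads were 70 and 2. In the Mir1306 fold 16 of the 23 bases of the annotated miR-1306-5p were paired, 14 of the 21 bases of the commonest read, and 15 of the 21 bases of miR-1306-3p. The 3' end of miR-1306-3p reached 3 nt past the annotated start of the 5' arm and 5 nt past the commonest read start. These are predictions from the sequence alone and describe no measured structure.

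The sense reads of Dgcr8 had their highest level in the shortest window. With several-place reads shared equally among their places, the sense level was 236 RPM in the 19-24 nt window (185 to 297), 8.83 RPM in the 24-30 nt window (1.83 to 25.7) and 15.1 RPM in the 19-30 nt window (2.07 to 52.3). The 19-24 nt level was 26.7 times the 24-30 nt level (8.81 to 132). Among the 811 coding genes with 10 or more sense reads in these libraries together, 14.4% were 2-fold or more higher in the 19-24 nt window and 70.5% were 2-fold or more lower. The median ratio was 0.249, and 31 genes had a ratio as high as that of Dgcr8 or higher. The 19-24 nt level was 15.6 times the 19-30 nt level (4.35 to 116). There 3.78% of 662 coding genes were 2-fold or more higher and 92.9% were 2-fold or more lower, with a median of 0.198, and 8 genes were as high as Dgcr8 or higher. The 24-30 nt level was 0.584 times the 19-30 nt level (0.0696 to 6.25), on about 3 and 2 reads, and the median of 940 coding genes was 0.840. In that comparison 23.1% of the genes were 2-fold or more higher and 39.1% were 2-fold or more lower. The 3 comparisons share their libraries and do not support each other.

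Most other hairpins were also higher in the 19-24 nt window per matched read. For Mir1306 the ratio of the 19-24 nt to the 24-30 nt level was 39.2 (10.5 to 330), against a median of 35.4 over 230 hairpins. Of these hairpins 91.7% were 2-fold or more higher and 111 were as high as Mir1306 or higher. Its ratio of the 19-24 nt to the 19-30 nt level was 32.8 (5.70 to 1314), on 70 and 1 reads, against a median of 8.50 over 229 hairpins, of which 76.9% were 2-fold or more higher and 68 were as high or higher. Per microRNA read in place of per matched read, the ratios were 3.58 (0.955 to 30.2, median 3.23) and 7.68 (1.33 to 308, median 1.99), and 59.6% and 49.3% of the hairpins were 2-fold or more higher. The marker hairpins differed in the same contrasts. The 4 hairpins of blood and stroma together had 56.0 times the 24-30 nt level (48.9 to 64.4) and 25.98 times the 19-30 nt level (22.5 to 30.1) in the 19-24 nt window. The 8 hairpins of the germline and early embryo had 42.9 times the 24-30 nt level (26.96 to 72.9) and 0.213 times the 19-30 nt level (0.194 to 0.233). The part of RNA from other cells in the Mir1306 reads of the 19-24 nt window was not tested.

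Mir185, whose hairpin lies in Tango2, the next gene at higher coordinates, was read in all 3 windows. It had 86 reads in the 19-24 nt window (281 RPM, 225 to 348), 25 in the 24-30 nt window (73.1 RPM, 47.3 to 108) and 23 in the 19-30 nt window (161 RPM, 102 to 241). Mir185 and Mir1306 therefore had overlapping intervals in the 19-24 nt window, and Mir185 was higher in the other windows, where the intervals did not overlap.

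Outside the hairpins, the Dgcr8 mRNA was nearly free of small RNA reads. Its 5' UTR and coding sequence had 0 reads on either strand in all 3 libraries once hairpin reads were taken out. The 3' UTR had 0 reads in the 19-24 nt window, 1 in the 24-30 nt window at position 4240 (chr16, base 18254028; longer than 22 nt or unsized) and 1 in the 19-30 nt window at position 3834 (chr16, base 18254434; 24 nt). Low counts were the rule for mRNAs: of 21951 coding genes, 86.3% had 0 single-place sense reads outside microRNA genes in the 19-24 nt window, 73.7% in the 24-30 nt and 92.0% in the 19-30 nt window. With 0 or 1 read the shares were 95.8%, 88.3% and 96.3%, and Dgcr8 had 0 reads outside its hairpins in the 19-24 nt window and 1 in each of the others.

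The genes around Dgcr8 gave little. Both 3' UTR reads fell where the tail of Dgcr8 overlaps Trmt2a, a tRNA methyltransferase gene on the opposite strand (chr16:18248679-18254772), and they were the only single-place reads of Trmt2a, as 0, 1 and 1 antisense reads in the 19-24 nt, 24-30 nt and 19-30 nt libraries. Trmt2a had 0 sense reads in each library. Gm49776, which overlaps Dgcr8 on the same strand, and Ranbp1, the next gene at lower coordinates and a partner of the GTPase Ran, had 0 single-place reads in each. Tango2 had 0, 2 and 0 sense reads. No single-place read lay antisense to Dgcr8 in any library. The exact upper limits were 12.1, 10.8 and 25.8 RPM in the 19-24 nt, 24-30 nt and 19-30 nt libraries.

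The antisense reads all came from a repeated stretch. The 217 antisense reads (45 in the 19-24 nt, 87 in the 24-30 nt and 85 in the 19-30 nt window) and 27 sense reads (7, 5 and 15) matched positions 2352 to 2476 of a Dgcr8 transcript with a retained intron, in its exon 8 (chr16:18271246-18272803). The stretch of 125 nt is absent from the full-length, spliced mRNA. The 61 different 20 nt sequences of these reads were shared with transcripts of 2082 other genes, 1447 of them coding and 22 of them annotated as microRNA genes, and every antisense read had at least 91 places. Shared equally among places, the antisense reads came to 0.316 reads in the 19-24 nt window, 0.183 in the 24-30 nt window and 0.5502 in the 19-30 nt window. The reads cannot be assigned to Dgcr8, and no sequence of the stretch is printed because its copies lie on many chromosomes.

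**Figure D3:**
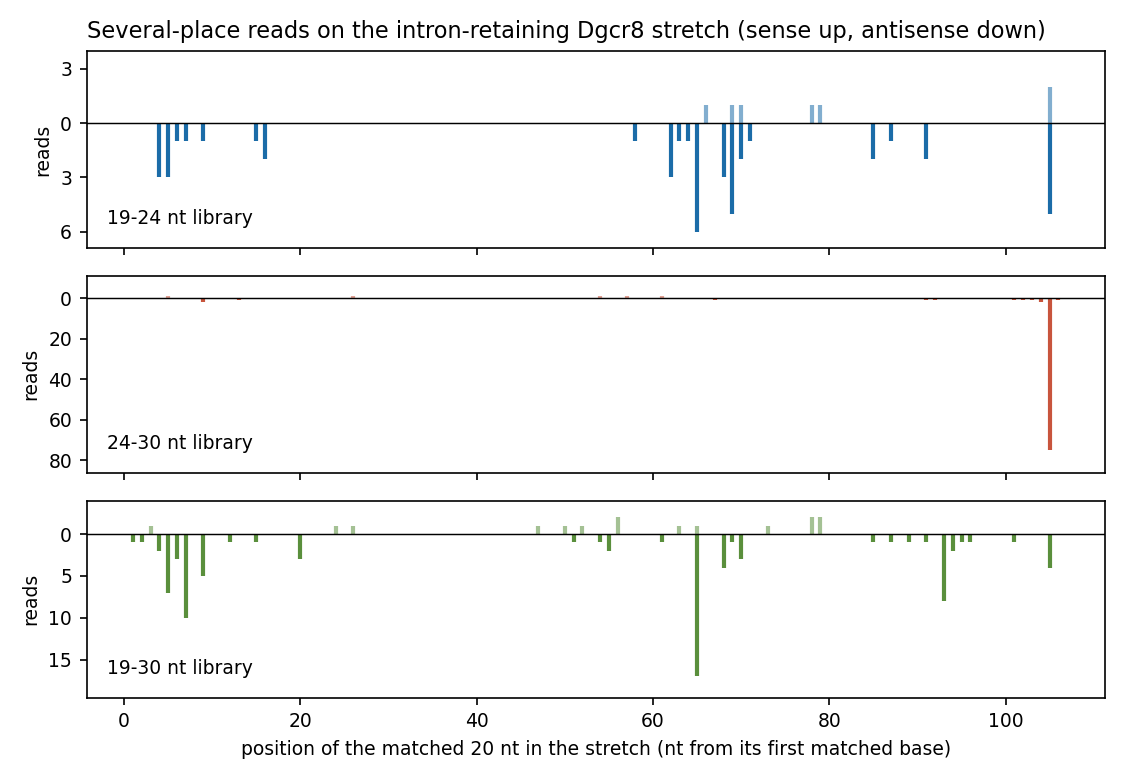
Several-place reads along the 125 nt stretch of the intron-retaining transcript (horizontal axis, nt from its first matched base), with sense reads in pale colour above the line and antisense reads in full colour below it (vertical axis, number of reads, scaled for each library). In the 24-30 nt window 75 of 87 antisense reads stand at 1 position, while in the 19-24 nt and 19-30 nt libraries they spread over 20 and 28 positions.

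The reads lay at different positions of the stretch in the 3 windows. In the 24-30 nt window 75 of 87 antisense reads (86.2%) matched position 2456, whose 20 nt have 755 places and equal the first 20 nt of mature miR-3473b, a microRNA of that repeated sequence. The same 20 nt had 5 reads in the 19-24 nt window and 4 in the 19-30 nt window. In those libraries the commonest antisense position was 2416, with 6 of 45 reads in the 19-24 nt window and 17 of 85 (20%) in the 19-30 nt window, and it had 0 reads in the 24-30 nt window. Position 2358 had 1 read in the 19-24 nt, 0 in the 24-30 nt and 10 in the 19-30 nt window, and position 2444 had 0, 0 and 8. Of the 244 reads of the stretch, 117 also matched an annotated microRNA gene, among them 82 of the 87 antisense reads of the 24-30 nt window, against 10 of 45 in the 19-24 nt and 21 of 85 in the 19-30 nt window.

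The reads of the 19-30 nt window could be sized up to 30 nt. There 68 of the 85 antisense reads, or 80.0% (69.9 to 87.9), were 20 to 23 nt long, the length of Dicer products. Of all 79661 reads of that library with a place antisense to a coding gene and none in a microRNA gene, 79.0% (78.7 to 79.3) had this length. The share in the stretch was near that value, but the sets are not alike: 21 of the 85 reads also matched a microRNA gene. Of the 17 sense reads that matched Dgcr8 in that window, 12 were 20 to 23 nt long (70.6%, 44.0 to 89.7). This share is mostly that of the repeated stretch, which held 15 of the 17. The 2 single-place reads were 21 nt and 24 nt long. Uridine was the first base of 53 of the 85 antisense reads (62.4%), of 18 of 45 (40%) in the 19-24 nt window and of 4 of 87 (4.598%) in the 24-30 nt window, where the single position led.

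**Figure D4:**
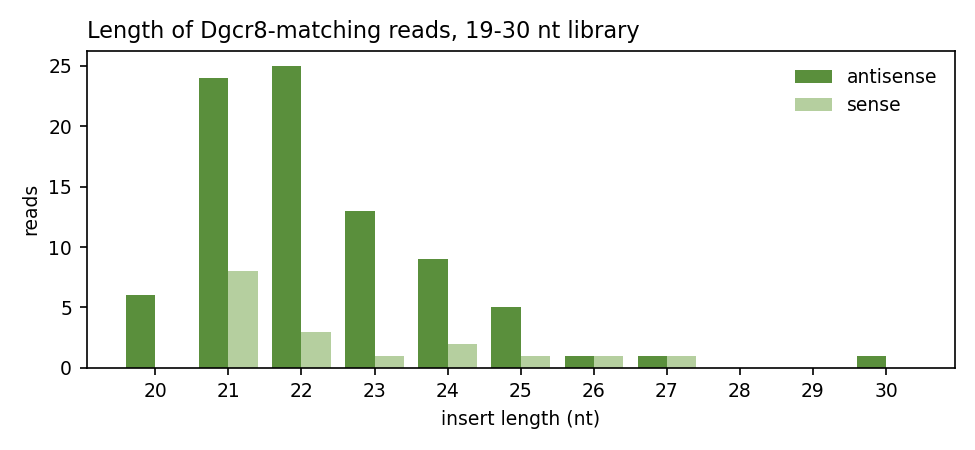
Number of Dgcr8-matching reads (vertical axis) of each insert length (horizontal axis, nt) in the 19-30 nt window, antisense reads in dark and sense reads in pale green. The antisense reads are most frequent at 22 nt (25 reads) and 21 nt (24 reads), and the sense reads at 21 nt (8 reads).

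Other genes of the same pathway had fewer reads than Dgcr8 in the 19-24 nt window when its hairpin reads were counted, and without them Dgcr8 had 0. Over 17 genes of microRNA processing and action, Dgcr8 had 72 single-place sense reads in the 19-24 nt window, all in its hairpins, and the next was Ran, the GTPase of nuclear export, with 6. Outside microRNA genes the order was the opposite there, with 0 reads of Dgcr8, 6 of Ran, 2 each of Dicer1, Ago3 and Tnrc6b, and 1 each of Drosha, Ddx5, Prkra and Tnrc6a. Drosha, the nuclease that DGCR8 guides, had 1, 1 and 0 reads in the 19-24 nt, 24-30 nt and 19-30 nt libraries. The helicases of the Microprocessor had 1, 3 and 0 reads (Ddx5) and 0, 8 and 0 (Ddx17). Srrt, which links primary transcripts to the cap-binding complex, and Xpo5, which exports precursors, each had 0, 1 and 0. Dicer1, which cuts precursors, had 2, 15 and 3, and 1 antisense read in the 24-30 nt window. Its partners had 0 reads throughout (Tarbp2) and 1, 0 and 0 (Prkra). Apart from Dgcr8, Ran and Dicer1, the 17 genes had at most 9 single-place sense reads in a library (Ago2, 24-30 nt window). The order among these other genes was not tested.

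The Argonaute genes encode the proteins that carry the mature microRNA. Ago1 had 0 reads in each library, Ago2 had 0, 9 and 0, Ago3 had 2, 2 and 0, and Ago4 had 0, 1 and 0. Of the GW182 proteins that silence the bound mRNA, Tnrc6a had 1, 1 and 0 sense reads with 1 antisense read in the 19-24 nt window. Tnrc6b had 2, 6 and 0 sense reads, and 1 of the 6 lay in its exonic hairpin Mir5113. Tnrc6c had no sense read and 2 antisense reads in the 24-30 nt window.

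**Figure D5:**
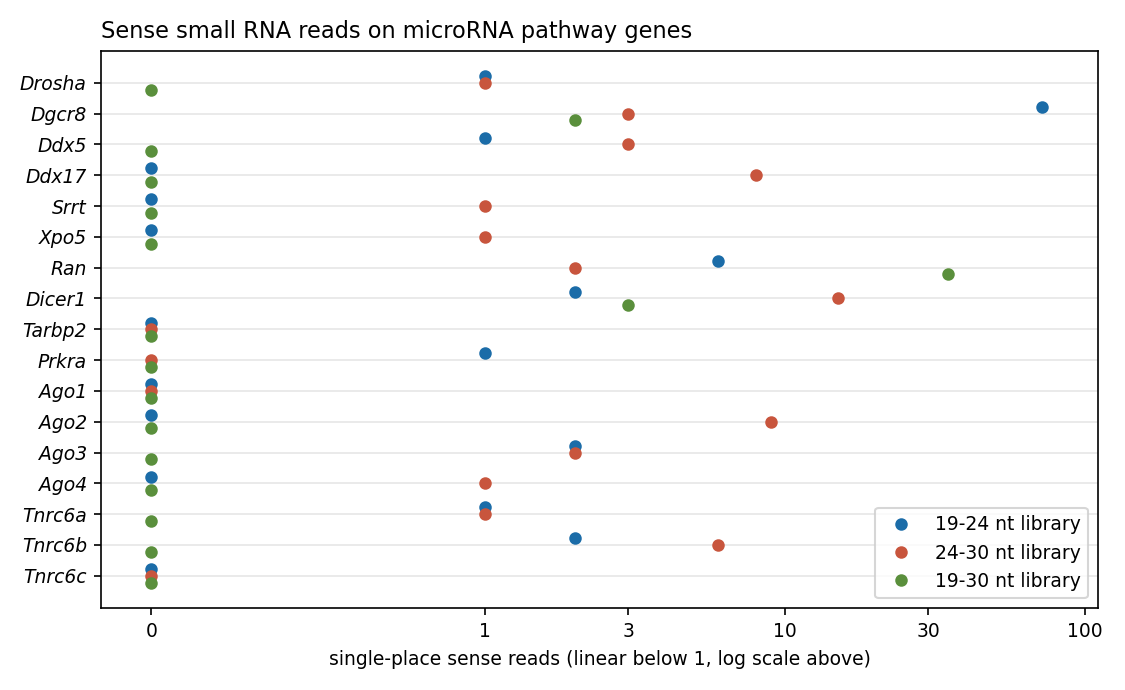
Single-place sense reads (horizontal axis, linear below 1 and log scale above) of the 17 microRNA pathway genes in each library. Dgcr8 has 72 reads in the 19-24 nt window, all in its hairpins, against at most 6 for every other gene there, and Ran has 35 reads in the 19-30 nt window.

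With 10 or more weighted reads over both libraries, 3 of the 17 genes could be compared between the 19-24 nt and 24-30 nt windows. Dgcr8 and Ran were 2-fold or more higher in the 19-24 nt window and Dicer1 was 2-fold or more lower, with ratios of 26.7, 4.46 (1.41 to 19.0) and 0.323 (0.127 to 0.731). Of the 811 coding genes tested, 14.4% were 2-fold or more higher and 70.5% were 2-fold or more lower, with a median ratio of 0.249. The median of the 3 pathway genes, 4.46, is the ratio of Ran alone, and 3 genes are too few for a comparison with that background. The 72 single-place reads of Dgcr8 in the 19-24 nt window were all hairpin reads. Between the 19-24 nt and 19-30 nt windows Dgcr8 was higher and Ran and Dicer1 were lower, with ratios of 15.6, 0.127 (0.0672 to 0.227) and 0.213 (0.0798 to 0.519). Their median of 0.213 was near the 0.198 of all coding genes tested, of which 92.9% were 2-fold or more lower. Between the 24-30 nt and 19-30 nt windows Ran had a ratio of 0.0285 (0.00726 to 0.0783) and Dicer1 of 0.660 (0.349 to 1.28), with 39.1% of all coding genes 2-fold or more lower and a median of 0.840. Ran and Dicer1 share many of their reads with other transcripts, so their levels are uncertain. Of Ran, 6 of 15.3 weighted reads were single-place in the 19-24 nt, 2 of 3.85 in the 24-30 nt and 35 of 56.6 in the 19-30 nt window. Of Dicer1, 2 of 7.96, 15 of 27.5 and 3 of 17.5 were. On single-place reads alone, a setting chosen after seeing the data, the 24-30 nt over 19-30 nt ratio of Dicer1 was 2.09 (0.592 to 11.3), on the other side of 1. Its 19-24 nt over 24-30 nt ratio was 0.149 (0.0166 to 0.642). The 19-24 nt over 24-30 nt ratio of Ran was 3.36 (0.601 to 34.0), an interval that includes 1. Against the 19-30 nt level, Ran had 0.0803 (0.0276 to 0.193) in the 19-24 nt and 0.0239 (0.00279 to 0.0931) in the 24-30 nt window.

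The coding genes most like Dgcr8 were still distant from it. Likeness was taken as the Hellinger distance between the shares of weighted level over 6 values, sense and antisense in the 3 libraries, where 0 is an identical profile and 1 one with nothing in common, among 471 genes with a similar number of reads. The nearest were Hist2h2bb at 0.423, Scd2 at 0.443, Tmem38b at 0.459, Cfl1 at 0.502 and Gja1 at 0.519. Hist2h2bb, a histone gene, had 18.2, 10.1 and 3.06 weighted sense reads in the 19-24 nt, 24-30 nt and 19-30 nt libraries, where Dgcr8 had 72.0, 3.02 and 2.17. Scd2, a fatty acid desaturase gene that also holds an exonic hairpin, had 17.2, 23.3 and 1. In the 19-24 nt window 0 single-place reads of Dgcr8 lay outside microRNA genes, against 18 of Hist2h2bb, 12 of Scd2, 30 of Tmem38b, 13 of Cfl1 and 10 of Gja1.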

How the data were processed

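As deposited by the authors, the files hold neither counts nor levels but other values: sequencing reads and their base qualities, untrimmed of the linker. Per the labels' protocols, RNA was size-selected, ligated to adapters and amplified; aligner, build and filters are not given in the sources used here. All counts were made here in Python 3.11.15 (numpy 2.4.6, scipy 1.17.1, matplotlib 3.10.9). The linker (17 nt, derived from the reads) was searched with an overlap of at least 4 nt in 26 nt reads and 6 nt in 36 nt reads and up to 20% mismatches. In 26 nt reads, inserts could be sized up to 22 nt, and reads without linker were kept as unsized; 36 nt reads without linker (308575) were set aside. Of 764539, 1484509 and 943811 reads in the 19-24 nt, 24-30 nt and 19-30 nt libraries, 177489, 171655 and 1010 held an uncalled base. Usable were 679331, 1421379 and 438650 reads (inserts of 18 nt or more, no uncalled base in the first 18 nt), and 45.0%, 24.1% and 32.6% of these matched. Reads with an uncalled base in the first 20 nt were not matched. Reads in which a base made up 15 or more of the first 20, or with fewer than 6 different 3-mers, were left out. The first 20 nt were matched perfectly to 141767 GENCODE M21 transcripts on both strands, placed on GRCm38 through the exons and weighted by 1 over their places. A single place means a single one among annotated transcripts: introns, intergenic sequence, nuclear tRNA and rRNA were not searched here. The matching was tested on simulated reads. Poisson, binomial and conditional binomial intervals (95%) cover counting error only, since reads amplified by PCR are not independent molecules. Folds used RNAfold (ViennaRNA 2.7.2). Named genes are Dgcr8, hairpins in its exons, the pathway list, the overlapping and nearest genes, and the 5 coding genes nearest by Hellinger distance. Members and lists were chosen with earlier results of these data known. Alternatives covered several-place reads, duplicates, the denominator, the match length, the linker search, hairpin reads and the minimum of reads.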

Additional observations from a re-analysis of the deposited data

Results flagged for a closer look

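Among reads outside the comparisons, 20 reads of the 19-30 nt window matched Dgcr8 but had no linker that could be found within 36 nt, and they were set aside as inserts over 30 nt, beyond the gel window. Whether a linker was missed in them was not tested. They stood out as a signal in reads that no comparison used. Of these 20 reads 4 were sense and 16 antisense, 0 had a single place and 0 lay in a hairpin, and each had at least 91 places.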

How the results depend on the processing

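Each window has 1 library, so no replicate could be left out. No paired analysis was possible because there is 1 library per window. Of the 19-24 nt over 24-30 nt ratio of Dgcr8, 9 settings kept the direction, between 11.1 and 125 (the highest per 1000000 reads that are not microRNA). The 19-24 nt over 19-30 nt ratio was between 8.71 and 64.1 under 8 settings. In the same direction, it was 2.18 (1.28 to 3.92) with every matching read counted in full, a setting chosen after seeing the data, in which the reads of the repeated stretch weigh as much as hairpin reads. The 24-30 nt over 19-30 nt ratio ran between 0.197 and 1.01 over 7 settings. For 5 ratios, among them all 3 without hairpin reads, both counts were at or under the floor and no value is given. The hairpin share of sense reads was 97.4% with single-place reads alone, since that removes the repeated stretch, and 62.8% to 73.7% under 4 other settings. The sum of weighted antisense reads was 1.05. It was 0 with single-place reads, 0.651 with 22 matching nt, 20.05 with up to 1 mismatch, 217 with every read in full, and 233 when reads over 30 nt were added (the last 2 chosen after seeing the data). Reads added by the mismatch setting were shared only among their places on Dgcr8, not among all their places. The 20.05 is therefore not on the same weighting as the main setting. The same holds for the sense ratio of 8.71, which came from the mismatch setting. Whether the added reads came from Dgcr8 was not tested. The share of 20 to 23 nt sense reads ran between 50% and 81.8% over 6 settings. With at least 30 reads in place of 10, fewer genes were tested, and 315 (against 689), 247 (against 640) and 225 (against 585) coding genes were past 2-fold in the 19-24 nt over 24-30 nt, 19-24 nt over 19-30 nt and 24-30 nt over 19-30 nt comparison. Counting error is widest where Dgcr8 had 3 and 2 single-place reads, in the 24-30 nt and 19-30 nt libraries, although the 24-30 nt library had the most matched reads (342131).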
